A study of Mus musculus with 10 samples.

Results

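Germ cell and testis genes were followed through the maturation of the mouse retina, a tissue without germ cells. They were taken by name as the genes with a symbol of the families Spata, Tex, Tssk, Sycp, Piwil or Tdrd and a number, together with Ddx4, Dazl and Mael. This gave 58 of the 20044 gene symbols of the deposited table (76 of its 25152 entries). Where a symbol had more than 1 entry, the one with the highest total of the 8 values was used. The rule groups by name, so that Tex19.1 and Tex19.2, different genes, fell under 1 symbol, for which Tex19.1 stood. The names also cover genes with known work outside the testis, which are described as a group of their own.

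Germ cells build a small RNA defence against transposons, the piRNA pathway, in which PIWI proteins, Tudor domain proteins and helicases gather in cytoplasmic granules. At meiosis the synaptonemal complex joins homologous chromosomes, and later the spermatid uses its own kinases while it remodels into a sperm. In somatic cells many of these genes are silent, and some of their promoters are known to be held silent by DNA methylation. H3K4me2 is found at active and poised promoters, and H3K27me3 is the mark that Polycomb complexes place at repressed ones.

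Whole retinas, at least 20 pooled for a stage, gave chromatin of E17.5 embryos and of pups at PN1, at PN7 and at PN15, which was sequenced after immunoprecipitation (ChIP-Seq) with an antibody to H3K4me2 or to H3K27me3. There was 1 library for each mark and stage, so no difference has a replicate and no p-value is given. The study's methods name wild type C57BL/6j mice for these stages, whereas the sample labels carry Pde6b (rd1/rd1), the strain that loses its rods, on every library and write the embryonic stage as E17. The antibody catalogue numbers of the marks are exchanged between the labels and the methods, and the mark was taken from the library titles. The rd1/rd1 library of PN30 and the anti-GFP library of PN56 were not analysed here. In whole retina, fewer cells with a mark and less of it per cell cannot be told apart.

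Each value is a normalized occupancy, namely the uniquely mapped reads up to 2.5 kb on either side of a transcription start site (TSS), which the authors scaled to library size and rounded. The window has the same length for every gene, so levels can be set side by side. All series of 4 values run from E17.5 through PN1 and PN7 to PN15. As a background, the 99th percentile of 1053 entries of olfactory receptor genes, which serve smell and not vision, was taken in each library and is called the limit. For H3K4me2 the limit was 6, 9, 1 and 9.48, and for H3K27me3 it was 33.5, 44.0, 40.5 and 41.5. The paper reports that most but not all olfactory receptor genes had no H3K27me3. A value under the H3K27me3 limit thus does not show that the mark is absent. At PN7, where the H3K4me2 limit was lowest, the library listed 20.1% of all symbols at 0, against 0.419% to 2.78% in the other H3K4me2 libraries. Of 12 retinal marker genes 10 were above the H3K4me2 limit at all 4 stages, and their median occupancy at E17.5 was 15.5 and at PN15 it reached 106. Of the markers of other cells, 5, 1, 3 and 0 of 7 lens genes were above it at the 4 stages. For 6 pigment epithelium genes the counts were 3, 2, 3 and 3. At all 4 stages 0 lens genes and 2 pigment epithelium genes were above it. The pigment epithelium genes were Mitf and Dct, named after their values were seen.

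H3K4me2 was above its limit for a smaller share of the germ cell and testis genes than of all symbols. The counts were 28, 24, 29 and 27 of the 58 genes at the 4 stages (48.3%, 41.4%, 50% and 46.6%). The shares over all symbols were 72.6%, 69.0%, 72.1% and 68.3%. Their median occupancy was 6, 8, 1.5 and 6, against 41, 27, 24 and 42 over all symbols and 2, 3, 0 and 2 over the olfactory receptors. At all 4 stages 22 genes were above the limit (37.9%, against 65.3% of all symbols), at 1 to 3 stages 11 genes, and at no stage 25 genes (43.1%, against 24.4%). Most of the set thus lay either at the olfactory receptor level or steadily above the limit.

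H3K27me3 was above its limit for few genes of the set. At the 4 stages 7, 6, 6 and 4 genes were above its limit (12.1%, 10.3%, 10.3% and 6.90%), against 17.1%, 15.4%, 15.9% and 13.8% of all symbols. With the 95th percentile of the olfactory receptors as the limit the counts were 10, 12, 12 and 8 (17.2%, 20.7%, 20.7% and 13.8%), against 24.3%, 24.8%, 24.3% and 19.3%. The median of the 58 genes was 10.5, 11, 10 and 12, close to the medians of 11, 10, 9 and 10 over all symbols. Spata3, Spata18, Tdrd5 and Tdrd6 were above the limit at all 4 stages (6.90%, against 10.9% of all symbols), Spata2L, Tssk3 and Tex2 at some, and the other 51 at none (87.9%, against 79.9%). Neither mark was above its limit at any stage for 24 genes (41.4%, against 23.0% of all symbols). Of the 25 genes with H3K4me2 above the limit at no stage, 24 were above the H3K27me3 limit at no stage either (96.0%, against 94.5% of the 4882 such symbols). Spata3 was the other one. That share is close to the share over all symbols. Being under the limit is not the same as being without the mark. For example, Tex101 had H3K27me3 of 21, 31, 27 and 31, and Tex13 had 28, 16, 33 and 30. Both passed the 95th percentile at PN7 and PN15.

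**Figure D1:**
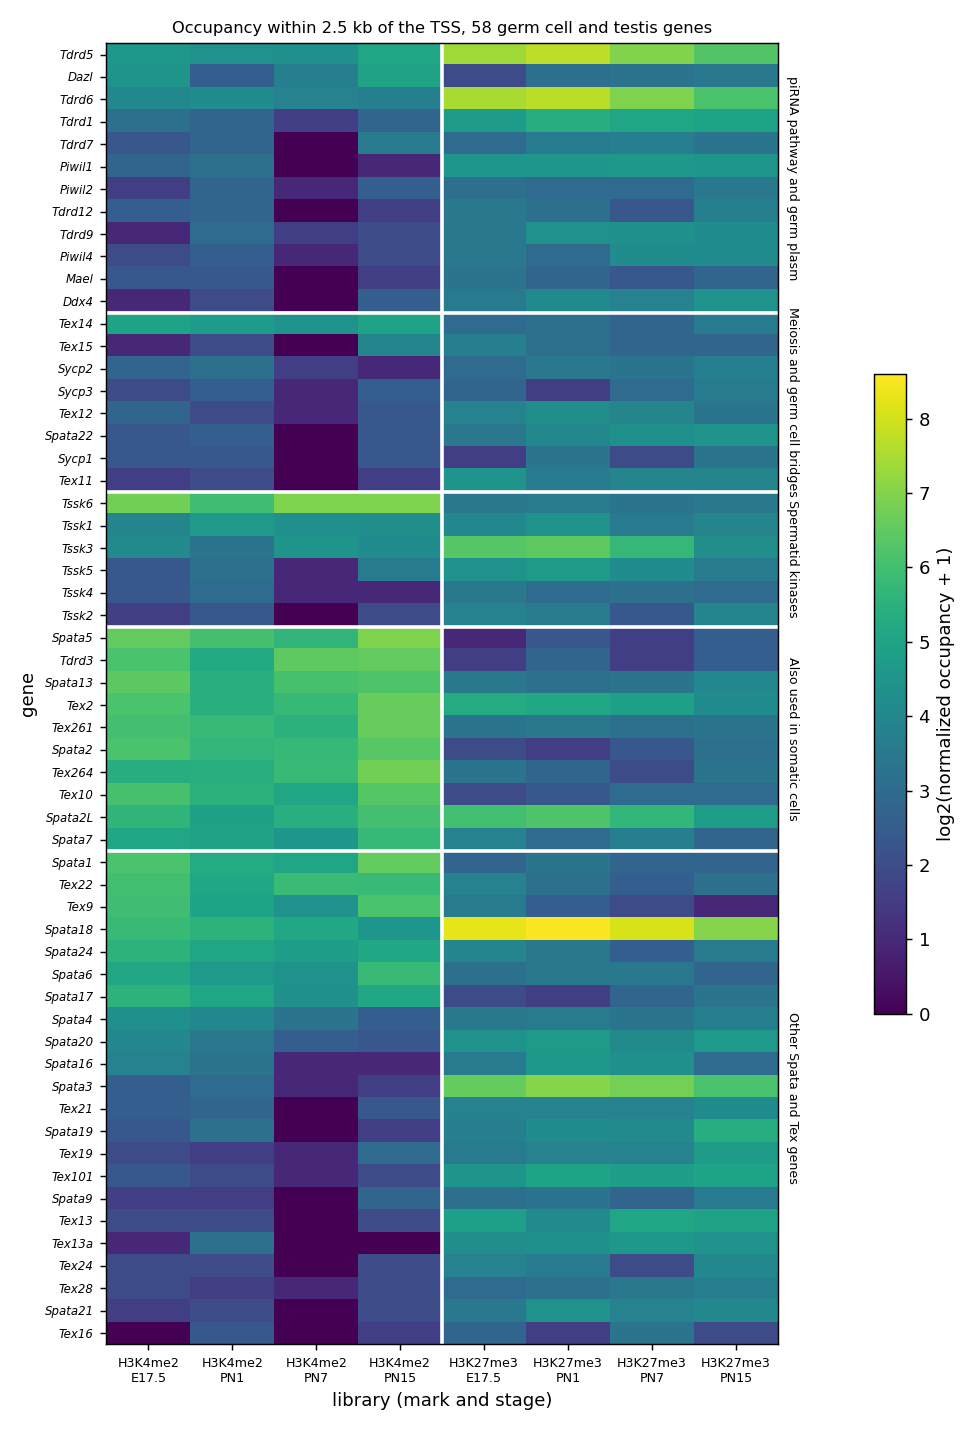
Heat map of log2(normalized occupancy + 1) for the 58 genes (rows, grouped by role and ordered by their H3K4me2 sum) in the 8 libraries (columns), 1 library per mark and stage. The genes also used in somatic cells are bright in all H3K4me2 columns, most piRNA and meiosis genes are dark there, and the H3K27me3 columns are bright for Tdrd5, Tdrd6, Tssk3, Spata2L, Spata18 and Spata3.

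At E17.5, 22 genes had H3K4me2 alone, 6 had both marks, 1 had H3K27me3 alone and 29 had neither. The shares over all symbols were 57.0%, 15.6%, 1.51% and 25.9%. At PN15 the same classes held 24, 3, 1 and 30 genes, against 57.5%, 10.9%, 2.92% and 28.7% of all symbols. The count with H3K27me3 alone at PN15 was 5 with the 95th percentile as the limit and 2 at 1.5 times the 99th. The 6 genes with both marks at E17.5 were Spata18, Spata2L, Tdrd5, Tdrd6, Tex2 and Tssk3. By PN15 Spata2L, Tex2 and Tssk3 had H3K4me2 alone, while Spata18, Tdrd5 and Tdrd6 still had both.

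**Figure D2:**
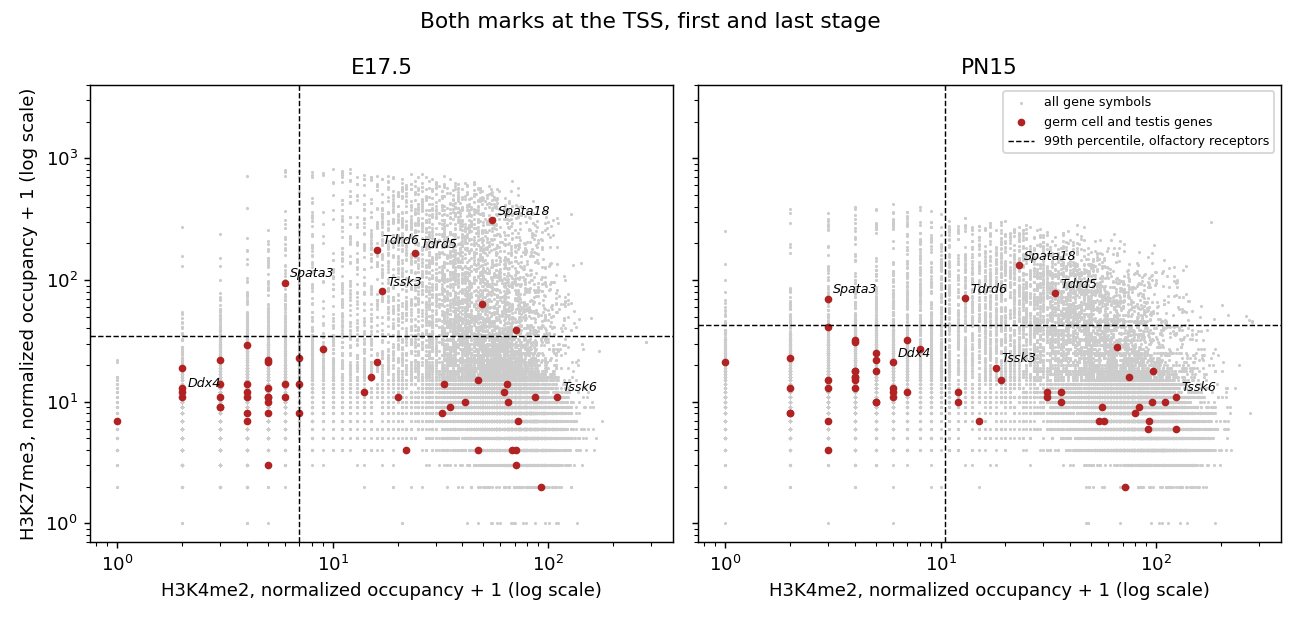
H3K27me3 against H3K4me2 (normalized occupancy + 1, log scales) at E17.5 and PN15, with the 58 genes in red over all gene symbols in grey and dashed lines at the limits. About as many red points lie left of the H3K4me2 limit as right of it (29 of 58 had neither mark at E17.5), and between E17.5 and PN15 the H3K27me3 values of Tdrd5, Tdrd6 and Spata18 came down but stayed above the line.

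The piRNA pathway and germ plasm were represented by 12 genes, of which 2 were above the H3K4me2 limit at all 4 stages, 6 at none and 2 above the H3K27me3 limit at any stage. Over all symbols these shares were 65.3%, 24.4% and 20.1%, so that the H3K27me3 count was near the background. Ddx4, the germ cell RNA helicase known as Vasa in flies, had H3K4me2 of 1, 3, 0 and 5 and H3K27me3 of 11, 16, 13 and 20. Mael, a piRNA factor of the nuage granules, had H3K4me2 of 4, 4, 0 and 2 and H3K27me3 of 9, 6, 4 and 6. Both lay within the range of the olfactory receptors in every library. The PIWI proteins bind the piRNAs themselves. Piwil1 had H3K4me2 of 6, 8, 0 and 1 and H3K27me3 of 22, 22, 23 and 22. Piwil2 had H3K4me2 of 2, 6, 1 and 5 and H3K27me3 of 8, 7, 7 and 10. Piwil4 had H3K4me2 of 3, 5, 1 and 3 and H3K27me3 of 10, 7, 17 and 17. None of the 3 PIWI genes was above a limit in any library. The H3K27me3 of Piwil1 was, however, above the median of all symbols in each library. It also passed the 95th percentile of the olfactory receptors at E17.5 (21.0) and PN7 (22.4).

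The promoters of Ddx4 and Mael are shown because they have the CpG-rich sequence that carries H3K4me2 at most other genes. The 250 bases before the start of each gene are from RefSeq (table of build GRCm38.p6), placed on mm9 by exact match, and the capitals mark CG dinucleotides. Sycp1, a meiosis gene described with its values further on, is given beside them.
Ddx4, chr13:113442519-113442768, minus strand: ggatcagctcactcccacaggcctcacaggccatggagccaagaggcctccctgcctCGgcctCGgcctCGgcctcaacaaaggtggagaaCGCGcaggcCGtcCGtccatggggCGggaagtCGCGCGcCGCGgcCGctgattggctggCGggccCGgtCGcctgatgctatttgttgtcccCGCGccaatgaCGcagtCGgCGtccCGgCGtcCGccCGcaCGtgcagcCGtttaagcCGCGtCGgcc
Mael, chr1:168168876-168169125, minus strand: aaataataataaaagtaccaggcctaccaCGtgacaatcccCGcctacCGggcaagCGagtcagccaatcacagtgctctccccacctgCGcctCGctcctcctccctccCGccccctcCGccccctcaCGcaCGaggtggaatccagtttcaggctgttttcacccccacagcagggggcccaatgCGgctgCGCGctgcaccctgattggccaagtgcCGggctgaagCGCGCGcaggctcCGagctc
Sycp1, chr3:102740024-102740273, minus strand: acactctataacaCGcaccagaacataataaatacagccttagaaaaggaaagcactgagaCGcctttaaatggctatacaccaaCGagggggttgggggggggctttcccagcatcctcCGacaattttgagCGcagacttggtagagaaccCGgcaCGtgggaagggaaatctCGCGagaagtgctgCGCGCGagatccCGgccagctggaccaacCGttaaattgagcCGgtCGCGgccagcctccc
The 3 sequences hold 31, 18 and 17 CG dinucleotides. In the mm9 annotation each of these genes starts at the base next to its printed stretch.

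The Tudor domain proteins dock to methylated arginines of the PIWI proteins, and their genes were not alike. Tdrd5 had H3K4me2 of 23, 20, 19 and 33 and H3K27me3 of 164, 212, 125 and 77. Tdrd6 had H3K4me2 of 15, 17, 13 and 12 and H3K27me3 of 176, 209, 121 and 70. These genes were above both limits at all stages, as was Spata18 outside the pathway. Tdrd1 had H3K4me2 of 8, 6, 2 and 6, above the limit at E17.5 and PN7, and H3K27me3 of 26, 40, 32 and 31, below the limit in each library but above the H3K27me3 median of all symbols. Tdrd7 had H3K4me2 of 4, 6, 0 and 11 and passed the limit at PN15, with H3K27me3 of 7, 11, 12 and 9. Tdrd9, a helicase, had H3K4me2 of 1, 7, 2 and 3, above the limit at PN7 by 1 unit, and H3K27me3 of 10, 20, 19 and 17. Tdrd12 stayed below both limits, its H3K4me2 being 5, 6, 0 and 2 and its H3K27me3 10, 8, 4 and 12.

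Dazl, an RNA-binding translation factor of germ cells, stood apart from Ddx4 and Mael. Its H3K4me2 was 21, 5, 12 and 30, above the limit at E17.5, PN7 and PN15, and its H3K27me3 was 3, 8, 9 and 10. The PN15 value had a 95% Poisson interval of 20.2 to 42.8, which covers counting error only. Its promoter is also rich in CG, with 20 in the 250 bases before the start.
Dazl, chr17:50432946-50433195, minus strand: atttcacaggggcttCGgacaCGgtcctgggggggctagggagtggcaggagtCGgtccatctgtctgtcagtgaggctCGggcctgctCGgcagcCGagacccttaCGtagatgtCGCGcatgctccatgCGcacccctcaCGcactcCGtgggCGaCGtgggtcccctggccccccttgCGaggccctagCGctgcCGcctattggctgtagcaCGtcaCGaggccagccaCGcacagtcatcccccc

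Outside the name families, 12 more piRNA and germ plasm genes had 1 above the H3K4me2 limit at all stages, 7 at none and 2 above the H3K27me3 limit at any, against 65.3%, 24.4% and 20.1% of all symbols. Tdrkh, a Tudor protein of the mitochondrial surface, had H3K4me2 of 61, 39, 73 and 90 and H3K27me3 of 10, 10, 7 and 10. Pld6 had H3K4me2 of 19, 19, 16 and 9, and Dnmt3l had 21, 13, 8 and 5. The window of Dnmt3l also holds the TSS of Aire, 1663 bp away. Most H3K27me3 was at Nanos2, with 66, 83, 70 and 31, and at Fkbp6, with 37, 46, 48 and 27.

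Of the 8 meiosis and germ cell bridge genes measured, 1 was above the H3K4me2 limit at all stages, 5 at none, and 0 above the H3K27me3 limit at any (65.3%, 24.4% and 20.1% of all symbols). Sycp1, the transverse filament of the synaptonemal complex, had H3K4me2 of 4, 4, 0 and 4 and H3K27me3 of 2, 9, 3 and 9. Sycp3, of its lateral element, had H3K4me2 of 3, 5, 1 and 5 and H3K27me3 of 6, 2, 7 and 11. Sycp2, also of the lateral element, had H3K4me2 of 6, 8, 2 and 1 and H3K27me3 of 7, 10, 9 and 12. The structural genes of the complex were thus near the olfactory receptor level, with Sycp2 above the H3K4me2 limit at PN7 alone, by 1 unit. Tex12, a central element gene, had H3K4me2 of 6, 3, 1 and 4 and H3K27me3 of 13, 18, 14 and 9. Tex11, an X-linked crossover gene, had 2, 3, 0 and 2 and 21, 11, 14 and 14. Spata22, a partner of Meiob in recombination, had 4, 5, 0 and 4 and 10, 15, 19 and 21. These 3 genes passed neither limit in any library.

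Tex14 and Tex15 were the other members of this group. Tex14, which builds the bridges between germ cells, had H3K4me2 of 31, 26, 20 and 30 and H3K27me3 of 7, 8, 6 and 11. The TSS of Rad51c lies 111 bp from that of Tex14, and its own entry had H3K4me2 of 33, 26, 20 and 31, so the window cannot tell the promoters apart. Tex15, needed for meiotic recombination, had H3K4me2 of 1, 3, 0 and 14 and H3K27me3 of 12, 8, 6 and 6. Its value at PN15 had an interval of 7.65 to 23.5, which did not overlap that at E17.5 (0.108 to 3.76).

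Of 20 further meiosis genes 16 were in the table, with 8 above the H3K4me2 limit at all stages, 3 at none and 3 above the H3K27me3 limit at any, against 65.3%, 24.4% and 20.1% of all symbols. The last counts were near the background, and of the 8 genes Smc1b and Stag3, named after their values were seen, share their window with the TSS of Ribc2 (142 bp away) and Gpc2 (235 bp away). Prdm9, the methyltransferase that places recombination hotspots, had H3K4me2 of 69, 54, 35 and 72. Psmc3ip had 61, 38, 55 and 63, and Msh5 had 67, 40, 44 and 42. Mei1 had H3K27me3 of 182, 216, 131 and 72 with H3K4me2 of 7, 9, 3 and 14, a course like those of Tdrd5 and Tdrd6. Dmc1, the meiotic recombinase, had H3K27me3 of 49, 61, 27 and 24.

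Among the 6 testis-specific serine kinase genes, 2 were above the H3K4me2 limit at all stages, 2 at none and 1 above the H3K27me3 limit at any (65.3%, 24.4% and 20.1% of all symbols). Tssk6 had H3K4me2 of 109, 61, 121 and 122, the largest H3K4me2 sum of the 58 genes, with H3K27me3 of 10, 11, 9 and 10. The TSS of Ndufa13, a respiratory chain subunit, lies 374 bp from that of Tssk6, and the Ndufa13 entry had H3K4me2 of 108, 61, 122 and 125. Tssk1 had H3K4me2 of 14, 24, 19 and 18 and H3K27me3 of 15, 20, 11 and 14. In the annotation its start lies 58 bp from the outermost start of Dgcr2, but the Dgcr2 entry had H3K4me2 of 57, 42, 49 and 86, so the deposited windows of this pair are not the same. Tssk3 had H3K4me2 of 16, 9, 21 and 17 and H3K27me3 of 80, 88, 52 and 18. The neighbouring 1700125D06Rik, 168 bp away, had nearly the same H3K27me3 (85, 89, 59 and 18).

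The other kinase genes were low. Tssk2 had H3K4me2 of 2, 4, 0 and 3 and H3K27me3 of 13, 11, 4 and 14. Tssk4 had H3K4me2 of 4, 7, 1 and 1 and H3K27me3 of 10, 7, 8 and 7. Tssk5 had H3K4me2 of 4, 8, 1 and 11 and H3K27me3 of 20, 25, 17 and 11. Of these only Tssk5 passed a limit, for H3K4me2 at PN15. The promoter of Tssk2 is printed as the opposite case to Ddx4, an unmarked promoter poor in CG (4 in 250 bases).
Tssk2, chr16:17898480-17898729, plus strand: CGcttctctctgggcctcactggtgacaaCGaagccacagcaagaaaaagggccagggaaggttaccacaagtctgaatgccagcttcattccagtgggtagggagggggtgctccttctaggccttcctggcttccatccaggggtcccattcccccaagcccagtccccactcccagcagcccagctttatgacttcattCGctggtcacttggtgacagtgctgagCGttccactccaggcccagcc

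The 22 further spermatid and sperm genes had 6 above the H3K4me2 limit at all stages, 11 at none and 3 above the H3K27me3 limit at any, with 65.3%, 24.4% and 20.1% of all symbols beside them. The 6 include Tnp2 and Zpbp, named after their values were seen. Their windows also hold the TSS of Prm3 (2258 bp away) and 4930415F15Rik (314 bp away). Izumo1, the sperm protein that binds the egg, had H3K4me2 of 41, 15, 2 and 200 and H3K27me3 of 76, 146, 73 and 61. Crem, a transcription factor also used outside the testis, had H3K4me2 of 62, 45, 49 and 98. Catsper2, a sperm calcium channel gene with the TSS of Pdia3 at 806 bp, had 66, 53, 38 and 88. Hspa1l had H3K27me3 of 156, 198, 19 and 43 with H3K4me2 of 39, 33, 9 and 64, and the TSS of Hspa1a lies 579 bp away.

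Genes with known work in somatic cells were put on a list of their own, drawn with earlier results of these data known and not complete. Of 11 on it 10 were in the table, and all 10 were above the H3K4me2 limit at all 4 stages, as were 12 genes outside the list and 65.3% of all symbols. Their H3K4me2 medians were 68.5, 42.5, 51.5 and 86.5, above those of all symbols at each stage. Spata5, an ATPase of ribosome assembly, had H3K4me2 of 91, 66, 50 and 122 and H3K27me3 of 1, 4, 2 and 5. Tdrd3, a reader of methylated arginine that partners a topoisomerase, had H3K4me2 of 70, 37, 87 and 91 and H3K27me3 of 2, 6, 2 and 5. Spata13, an exchange factor for small GTPases, had H3K4me2 of 86, 43, 68 and 74 and H3K27me3 of 10, 8, 9 and 15. The H3K27me3 of these genes was at or near the level of the olfactory receptors.

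Spata7, a gene of the photoreceptor cilium in which mutations cause retinal dystrophy, had H3K4me2 of 32, 30, 22 and 53 and H3K27me3 of 13, 7, 12 and 6. It was thus at the low end of its group in H3K4me2, below the median of all symbols at E17.5 and PN7 and above it at PN1 and PN15. Tex264, a receptor for autophagy of the endoplasmic reticulum, had H3K4me2 of 40, 42, 54 and 109 and H3K27me3 of 9, 6, 3 and 9. The promoters of both are printed as the marked counterparts of those above.
Spata7, chr12:99866102-99866351, plus strand: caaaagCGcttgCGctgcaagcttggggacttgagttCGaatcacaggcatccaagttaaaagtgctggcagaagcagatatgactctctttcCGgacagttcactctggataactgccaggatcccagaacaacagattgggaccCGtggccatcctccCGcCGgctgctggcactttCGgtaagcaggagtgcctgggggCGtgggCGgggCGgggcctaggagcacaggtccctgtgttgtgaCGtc
Tex264, chr9:106588284-106588533, minus strand: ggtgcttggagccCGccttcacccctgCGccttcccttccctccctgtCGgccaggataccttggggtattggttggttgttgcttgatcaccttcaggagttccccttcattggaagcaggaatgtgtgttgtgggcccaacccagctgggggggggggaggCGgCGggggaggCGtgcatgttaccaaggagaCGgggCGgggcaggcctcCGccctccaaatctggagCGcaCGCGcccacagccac
Each holds 12 CG dinucleotides, fewer than the unmarked promoters of Ddx4, Mael and Sycp1.

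The remaining genes of this group were marked at similar levels. Spata2, an adaptor of the deubiquitinase CYLD, had H3K4me2 of 70, 51, 53 and 82 and H3K27me3 of 3, 2, 4 and 8. Tex10, a subunit of a ribosomal RNA processing complex, had H3K4me2 of 67, 45, 33 and 79 and H3K27me3 of 3, 4, 7 and 7. Tex261 had H3K4me2 of 64, 56, 45 and 95 and H3K27me3 of 9, 10, 8 and 9. The exceptions with H3K27me3 were Spata2L and Tex2. Spata2L, the paralogue of Spata2, had H3K4me2 of 48, 29, 41 and 65 with H3K27me3 of 63, 75, 51 and 27. Tex2 had H3K4me2 of 70, 41, 53 and 96 with H3K27me3 of 38, 35, 28 and 17, above the H3K27me3 limit at E17.5 alone.

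Of the 22 other Spata and Tex genes, 7 were above the H3K4me2 limit at all stages, 3 at some and 12 at none, and 2 were above the H3K27me3 limit at any. All symbols had 65.3% at all stages, 24.4% at none and 20.1% with H3K27me3. Spata18, which takes part in mitochondrial quality control, had the most H3K27me3 of the 58 genes, 308, 372, 268 and 131, beside H3K4me2 of 54, 46, 35 and 22. Spata3 was the reverse of the somatic genes, with H3K27me3 of 94, 131, 110 and 69 and H3K4me2 of 5, 7, 1 and 2. Its annotated start and its RefSeq start lie 5129 bp apart, so the window of the deposited value was not settled. The same holds for Tex16, whose starts lie 82513 bp apart and which was counted among the genes with neither mark and among the CpG-poor promoters without H3K4me2. The promoter of Spata18 shows a CpG-rich case (24 in 250 bases) under H3K27me3.
Spata18, chr5:74042369-74042618, plus strand: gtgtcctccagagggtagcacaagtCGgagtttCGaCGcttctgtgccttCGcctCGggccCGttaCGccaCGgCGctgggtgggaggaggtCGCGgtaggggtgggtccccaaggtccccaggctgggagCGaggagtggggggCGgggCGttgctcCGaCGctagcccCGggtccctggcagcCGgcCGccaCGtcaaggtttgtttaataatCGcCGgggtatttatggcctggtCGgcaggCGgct

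Among the genes above the H3K27me3 limit, those that changed at least 2-fold had less of the mark at PN15 than at E17.5. Changes from E17.5 to PN15 are log2 ratios with 1 added to each value, taken relative to the median over all symbols (0.13 for H3K4me2 and 0.00 for H3K27me3), and a change of at least 2-fold was counted when the larger value was above its limit. For H3K27me3, 6 genes were lower by this rule (10.3%, against 7.42% of all symbols) and 0 were higher (1.88% of all symbols). Without the condition on the larger value, 8 were lower and 10 higher. Among the latter, Spata19 had H3K27me3 of 12, 17, 16 and 40, a log2 change of 1.66, and its PN15 value lay just under the limit of 41.5. Its intervals at E17.5 (6.2 to 21.0) and PN15 (29.3 to 53.4) did not overlap. The log2 change was −1.23 for Spata18, −1.08 for Tdrd5, −1.32 for Tdrd6, −2.09 for Tssk3, −1.19 for Spata2L and −1.12 for Tex2. The counting intervals at E17.5 and PN15 did not overlap for any of the 6. For Tssk3 they were 63.4 to 99.6 and 11.1 to 27.6. Spata3, at −0.44, kept more of its mark.

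Falls in H3K27me3 were also seen beyond the set. Of the 3426 symbols above the H3K27me3 limit at E17.5, 43.4% were at least 2-fold lower at PN15, with a median log2 change of −0.85 (quartiles −1.33 and −0.31). Of the 7 germ cell and testis genes above it at E17.5, 6 were lower, with a median of −1.19. At PN15, 4 of these 7 were still above the limit, against 68.1% of the 3426. Both groups were picked for a high value at E17.5, which favours a fall, so these shares are given as a description only. Most of the fall came after PN1, since for 6 of the 7 genes the value at PN1 was above that at E17.5, and between E17.5 and PN1 0 of the 58 genes changed 2-fold in H3K27me3 in either direction (0.229% of all symbols higher and 0.0499% lower). From PN1 to PN7 the counts were again 0 (1.26% and 1.18% of all symbols). From PN7 to PN15, Spata18 and Tssk3 were lower (3.45%, against 4.58% of all symbols) and 0 were higher (0.669%).

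**Figure D3:**
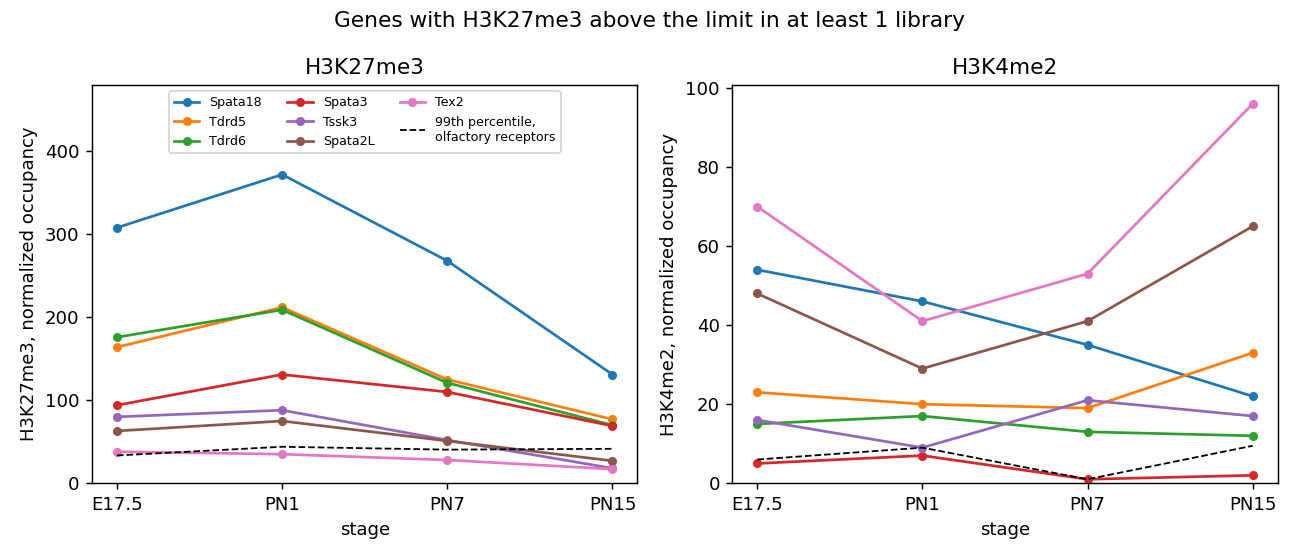
Normalized occupancy of H3K27me3 (left) and H3K4me2 (right) by stage for the 7 genes above the H3K27me3 limit in at least 1 library, 1 library per point, with the limit dashed. H3K27me3 of Spata18 falls from 372 at PN1 to 131 at PN15, and that of Tssk3 and Spata2L crosses below the limit at PN15, while the H3K4me2 lines of Tex2 and Spata2L end at their highest values.

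H3K4me2 changed in both directions from E17.5 to PN15. By the same rule 4 genes were higher (6.90%, against 2.67% of all symbols) and 4 were lower (6.90%, against 7.58%). Without the condition on the larger value, 7 were higher and 10 lower. Tex264 gained 1.29 on the log2 scale, with an interval from 31.4 to 50.2 at the first stage that lay below the one at PN15, from 89.5 to 131. Tex15 gained 2.77 from a value of 1. Tdrd7 and Tssk5 each gained 1.13 with values of 4 and 11, and their intervals (1.67 to 8.06 and 5.49 to 19.7) overlapped. With 5 added to each value in place of 1, the count of genes higher was 2. Of the 4 genes with a gain, Tex264 alone was above the limit at both ends.

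The genes with less H3K4me2 were Spata16, Spata18, Spata20 and Spata4. Spata16, needed to form the acrosome, had H3K4me2 of 13, 9, 1 and 1 and H3K27me3 of 11, 23, 19 and 7, a log2 change in H3K4me2 of −2.94. Spata4 had H3K4me2 of 19, 15, 9 and 5, a change of −1.87, and Spata20 had 15, 10, 5 and 4, a change of −1.81. For Spata18 the change was −1.39, so that both of its marks fell, and both stayed above their limits. The intervals were apart for 3 of the 4 genes and overlapped for Spata20 (9.97 to 21.7 and 1.09 to 10.2). The H3K27me3 of Spata4 and Spata20 did not pass its limit at any stage, with 10, 11, 9 and 12 and 20, 25, 16 and 24. Among the retinal markers 8 were higher and 2 lower in H3K4me2 by the same rule.

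Between neighbouring stages the H3K4me2 libraries differed over all genes, with median log2 changes of −0.42, −0.50 and 1.0 for the steps to PN1, PN7 and PN15. From E17.5 to PN1, Tssk1 was higher (1.72%, against 1.18% of all symbols) and Dazl was lower (1.72%, against 0.683%). From PN1 to PN7, 6 genes were higher (10.3%, against 13.6%), namely Dazl, Spata13, Tdrd3, Tex22, Tssk3 and Tssk6, and 0 lower (4.22%). At this step 36 of the 58 genes nevertheless lay below the median change of all symbols and 22 above it. Without the condition on the larger value 6 were higher and 26 lower. From PN7 to PN15, 3 were higher (5.17%, against 5.01%) and 8 lower (13.8%, against 13.6%). These last shares were close to those of all symbols, and they depend on centring on the all-symbol median, since without it 12 were higher and 0 lower from PN7 to PN15. Without it, too, 0 were higher from E17.5 to PN1 and 3 from PN1 to PN7. With 5 added to each value in place of 1, 0 were higher from E17.5 to PN1 and 2 lower from PN7 to PN15. The median of the 58 genes relative to that of all symbols was −0.09 for H3K4me2 and 0.17 for H3K27me3 from E17.5 to PN15. For the steps to PN1, PN7 and PN15 it was 0.37, −0.50 and 0.14 for H3K4me2 and 0.16, −0.11 and 0.14 for H3K27me3.

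The window of 2.5 kb on each side can take in another promoter. For 8 of the 58 genes (13.8%, against 14.3% of 19351 symbols placed on mm9) the annotated TSS of another protein-coding gene lay within it. They were Spata1, Spata17, Spata2, Spata5, Tex14, Tssk1, Tssk3 and Tssk6. All 8 were above the H3K4me2 limit at PN15, with a median occupancy of 58.5, against 19 of the other 50, with a median of 5. Over all symbols the shares were 92.0% of the 2773 with another TSS in the window and 65.2% of the 16578 without, with medians of 83 and 34, and 68.3% in all. Spata1 had H3K4me2 of 71, 38, 32 and 92, and Gng5, a G protein subunit gene 81 bp away, also had 71, 38, 32 and 92. Spata17 and Gpatch2, 43 bp apart, both had 46, 32, 19 and 35. Spata2 and Rnf114 lie 242 bp apart and Spata5 and Nudt6 315 bp, again with values that differed by at most 4 units of H3K4me2. Tssk1 and Dgcr2 were the exception, with different values. To which gene of such a pair the mark belongs was not tested. No gene of the set had a near-identical copy of its window elsewhere in mm9.

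CpG content was known from the promoter sequence alone and was set beside the marks. It was taken in 300 bases around the RefSeq start, 250 before and 50 after, for 48 of the 58 genes and 15751 symbols in all, as the observed to expected CpG ratio. The median ratio was 0.652 for the 48 genes and 0.623 over all symbols. Of the symbols with a ratio of at least 0.6, 7892 of 8186 (96.4%) were above the H3K4me2 limit at PN15. Of the germ cell and testis genes with such a promoter, 17 of 26 were (65.4%). The 9 CpG-rich promoters not above the H3K4me2 limit at PN15 were those of Ddx4, Mael, Sycp1, Sycp3, Spata22, Tdrd1, Tex12, Tex13 and Tex101, of which 7 belong to the piRNA and meiosis groups. Tdrd1 was above the H3K4me2 limit at E17.5 and PN7, and the other 8 at no stage. All 9 were above the H3K27me3 limit at no stage, as were 63.6% of the 294 symbols of the same class, 79.9% of all symbols and 94.5% of those with H3K4me2 at no stage. This depends on the limit. With the 95th percentile of the olfactory receptors (21.0, 22.0, 22.4 and 29.0), Tdrd1 passed it at every stage. Tex101 then passed it at PN1, PN7 and PN15, and Tex13 at E17.5, PN7 and PN15, while the other CpG-rich promoters of this class did not. Below a ratio of 0.6, 4 of 22 were above the H3K4me2 limit (18.2%, against 38.6% of 7565 symbols), namely Tdrd7, Tssk1, Tssk3 and Tssk6, and Tssk3 and Tssk6 share their window with another TSS whose entry had nearly the same values.

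**Figure D4:**
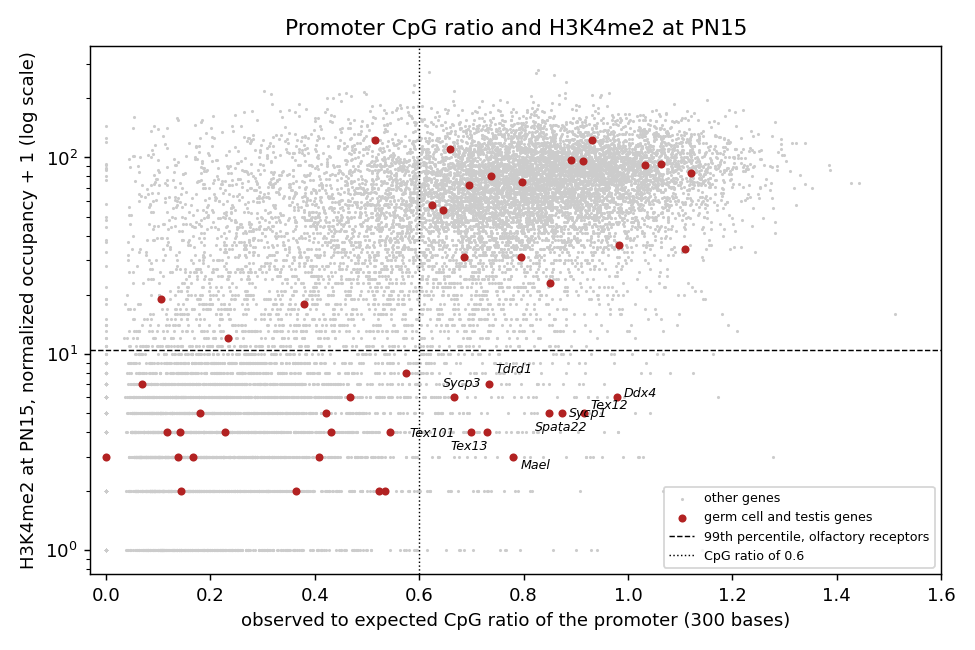
H3K4me2 at PN15 (normalized occupancy + 1, log scale) against the observed to expected CpG ratio of the promoter, with 48 germ cell and testis genes in red over the other genes in grey, the limit dashed and a ratio of 0.6 dotted. The 9 named genes lie right of the dotted line and below the dashed one, where few other genes are found (294 of 8186 symbols in all).

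Across all symbols the median CpG ratio was 0.764 with H3K4me2 at PN15 and 0.182 without it. For the germ cell and testis genes it was 0.795 (21 genes) and 0.466 (27 genes). The unmarked genes of the set thus had a higher CpG ratio than unmarked genes in general, while the marked ones were close to other marked genes.

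Short sequence matches were counted in the same 300 bases on both strands. CACGTG, the E-box bound by MAX and its partners, was in 10 of the 48 promoters (20.8%, against 8.39% of 15751). It was in 1 of the 21 with H3K4me2 at PN15 (4.76%, against 10.2% of symbols with the mark) and in 9 of the 27 without it (33.3%, against 4.48%). Among CpG-rich promoters not above the H3K4me2 limit at PN15 it was in 6 of 9, those of Ddx4, Mael, Sycp1, Sycp3, Tdrd1 and Tex12, against 40 of 294 symbols (13.6%), which include these 6. It can be read in the printed promoters of Mael, Sycp1 and Ddx4. TCCCGC, the core that E2F6 is known to bind, was in 20 of 48 (41.7%, against 27.5%) and in 6 of the 9 (66.7%, against 35.0% of the 294). It was in 13 of the 21 with H3K4me2 at PN15 (61.9%, against 37.2% of symbols with the mark). All 13 were among the 17 CpG-rich promoters above the limit, so the match was not particular to the unmarked ones. Of the 27 without the mark 7 had it (25.9%, against 6.26%). TGACGTCA, the cyclic AMP response element, was in the promoter of Spata7 alone (2.08%, against 2.5%). TAATCC, the site of the photoreceptor factor Crx, was in those of Tex9 and Tssk1 (4.17%, against 6.32%). No motif contains another, and all but TAATCC hold a CG. A match describes the letters and not binding.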

How the data were processed

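ChIP-Seq of whole retina was made for H3K4me2 and H3K27me3, with 1 library per mark and stage. The authors mapped reads with Bowtie 0.12.4 to mm9 (per the submitters' processing notes), kept uniquely mapped reads, and assigned midpoints with a fragment of 190 bp. The deposited values are scores, namely reads within 2.5 kb of each RefSeq TSS, scaled by the authors to library size and then rounded. They are not counts, and no count model was applied. Of 10 samples 2 have no column in the table and were not analysed here. The PN7 column of H3K27me3 has the letter b in its name.

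The members and the gene lists were chosen with earlier results of these data known. Genes were named by a rule: the members of the piRNA, meiosis, kinase and somatic lists, the 5 largest sums per mark, the changes of at least 2-fold from E17.5 to PN15, and at most 3 (H3K4me2) and 2 (H3K27me3) genes of each further list. Other genes were named after their values were seen. The blood marker list is not reported here. A limit was the 99th percentile of the olfactory receptor entries of the library.

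Library totals are not given there. In 5 libraries the spacing of the rounded values gave the value of 1 read (0.312 to 0.946), and in the other 3 it was at most 1. Poisson 95% intervals rest on these and are at their widest where only that upper value is known. An occupancy of 3 reads was 0.938 to 3.00. The intervals cover counting error only.

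TSS positions were those of the mm9 annotation. Copies of the 5 kb windows were sought with minimap2 2.31-r1302 (99% identity or more across 50% or more of a window). Promoters were from a RefSeq table of build GRCm38.p6, matched by symbol or synonym, and 48 of 58 members had one. The calculations used Python 3.11.15, numpy 2.4.6, pandas 2.3.3, scipy 1.17.1 and matplotlib 3.10.9. On simulated data for H3K4me2 from E17.5 to PN15 with 20044 genes, 200 of 200 genes changed 4-fold were called, as were 349 unchanged genes. The changed genes were drawn only from those at or above the all-symbol median of 41 at E17.5, with 1 unit taken as 1 read. The median of the 58 genes was 6 there, so recovery of changes at such low values was not tested. The alternatives were other limits, another pseudocount (5 in place of 1), no centring, no filter, the mean over the entries of a symbol, and sets without some genes or 1 library.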

Additional observations from a re-analysis of the deposited data

How the results depend on the processing

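No paired analysis was possible because each mark and stage had 1 library. Of 138 alternatives over 45 results, 105 left a count within 1.5 times its value, or a median within 0.1, and 33 moved it further. The cause was not tested. With the 95th percentile of the olfactory receptors as the limit, 12, 12 and 8 members were above it for H3K27me3 at PN1, PN7 and PN15, and 5 had H3K27me3 alone at PN15, against 2 at 1.5 times the 99th percentile. Without centring, members at least 2-fold higher in H3K4me2 were 0 from E17.5 to PN1, 3 from PN1 to PN7 and 12 from PN7 to PN15, with 0 lower in the last step. The median H3K4me2 changes were then −0.045, −1.0 and 1.14 for these steps and 0.041 from E17.5 to PN15, and that of H3K27me3 from PN1 to PN7 was −0.27. With a pseudocount of 5, 0 members were higher in H3K4me2 from E17.5 to PN1, 2 lower from PN7 to PN15 and 2 higher from E17.5 to PN15, and the medians were −0.17 from PN1 to PN7 and −0.083 from PN7 to PN15. Without the somatic genes these medians were −1.09 and 0.29. Without the filter on low values, H3K4me2 had 13 members higher from E17.5 to PN1, 26 lower from PN1 to PN7, 13 higher from PN7 to PN15, and 7 higher and 10 lower from E17.5 to PN15. For H3K27me3 it gave 5 higher and 3 lower from E17.5 to PN1, 5 higher and 4 lower from PN1 to PN7, 9 higher and 5 lower from PN7 to PN15, and 10 higher and 8 lower from E17.5 to PN15. Chosen after seeing the data, leaving out the H3K4me2 library of PN7 gave 22 members above its limit at all other stages, 27 at none and 26 with neither mark. Leaving out the 8 members with a shared window gave 15, 25 and 24. Occupancies of a few reads are at the depth limit of these libraries.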
